A study of Mus musculus with 2 samples.

Results

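Notch receptors, their ligands and the target gene Hes1 were followed in sorted luminal cells from mouse prostate. The cells were split into GFP-positive and GFP-negative ones by a GFP tag on histone 2B. The genes were chosen by name: Notch1, Notch2, Notch3, Notch4, Jag1, Jag2, Dll1, Dll3, Dll4 and Hes1. All 10 were among the 18724 genes of the table, and all 10 belonged to the 17183 genes with a mean of at least 10 normalised counts, here called measured. The 2 libraries were 1 of label-retaining (GFP-positive) cells and 1 of non-retaining (GFP-negative) cells, both sorted fresh from prostates of mice aged 18 weeks. The labels name no castration or other treatment for either library. The promoter that drives the histone label and the strain are not stated in the labels. Nor are the surface markers of the sort and the number of mice per library. Whether the GFP-negative cells had lost the label or had never carried it was not tested. In this design a label that is diluted at each division stays longest in cells that divide rarely, and the comparison asks how such luminal cells differ in gene expression from the others.

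Notch receptors are single-pass membrane proteins that are activated by ligands on a neighbouring cell. Binding of a Jagged or Delta-like ligand exposes the receptor to an ADAM protease and then to gamma-secretase, which frees the intracellular domain. This fragment enters the nucleus, joins the DNA-binding protein RBPJ and a Mastermind co-activator, and switches on repressors of the Hes and Hey families. In the prostate, Notch signalling takes part in budding, in the balance between basal and luminal cells and in the maintenance of progenitors.

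Depth was similar, with 50689229 reads in genes for label-retaining cells and 48334265 for non-retaining cells. With 1 library per group there was no replicate check, so no test between the groups was made. All differences describe these 2 libraries, and all intervals are exact 95% intervals that cover counting error only. A gene was called lower or higher when it was measured, differed at least 2-fold and had an interval that left out equality. The labelled luminal identity was visible in both libraries, in which the luminal keratin gene Krt8 had 147910 (label-retaining) and 81228 (non-retaining) normalised counts. Genes of other cells were present as well, at levels that differed between the sorts. A list of 12 basal epithelial markers took 0.107% of the reads of label-retaining cells and 1.07% of those of non-retaining cells, and each marker was detected in both. In such bulk samples, fewer cells of a type and less RNA per cell cannot be told apart.

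Of the 10 genes, 7 were called lower in the label-retaining library, 1 was called higher and 2 were not called. Across all measured genes, 19.4% were called lower and 14.5% higher. The median log2 ratio of the 10 genes (label-retaining over non-retaining) was -1.97, against -0.0052 for all measured genes. At a threshold of 4-fold, 5 of the 10 were lower, against 9.64% of all measured genes, and at 8-fold 3 of the 10, against 5.3%. Those 3 were the ligand genes Jag1, Jag2 and Dll1. Each of the 10 genes kept its sign under the other 4 scalings tried, but the call of Dll3 and the non-calls of Hes1 and Dll4 did not hold under all of them.

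**Figure D1:**
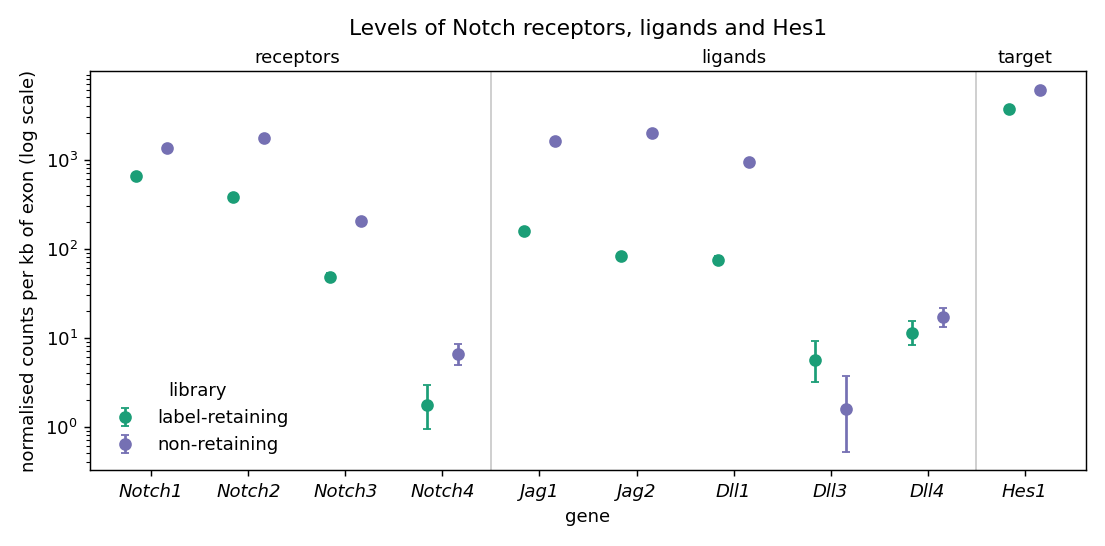
Normalised counts per kilobase of exon (log axis) of the 10 genes in the label-retaining library (green, left of each pair) and the non-retaining library (purple, right). Bars are exact 95% counting intervals, often smaller than the points; Jag1, Jag2 and Dll1 show the widest separation, and Hes1 is the highest gene in both libraries.

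All 4 receptor genes were called lower. Notch1, the receptor gene with the most reads in label-retaining cells, had 9304 normalised counts in label-retaining cells and 19045 in non-retaining cells. This was a log2 ratio of -1.03, with an interval of -1.07 to -0.998, so that Notch1 lay at the edge of the 2-fold threshold. Notch2, the other abundant receptor gene, had 4077 normalised counts in label-retaining and 18804 in non-retaining cells (-2.21, interval -2.25 to -2.16), a 4.61-fold difference. Notch2 was thus further from equality than Notch1, and their intervals did not overlap. Notch3, known from vascular smooth muscle and pericytes as well as epithelia, had 390.2 normalised counts in label-retaining and 1638 in non-retaining cells (-2.07, interval -2.23 to -1.91). Notch4, known chiefly from endothelium, had only 14 reads in label-retaining cells and 58 in non-retaining cells (-1.88, interval -2.87 to -1.06). Its interval was wide and took in the values of Notch2 and Notch3.

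The reads of the receptor family were divided differently in the libraries, a comparison within each library that does not depend on the scaling between them. Notch1 supplied 67.5% of receptor reads (interval 66.7% to 68.3%) in label-retaining and 48.2% (47.7% to 48.6%) in non-retaining cells. Notch2 supplied 29.6% (28.8% to 30.3%) in label-retaining and 47.6% (47.1% to 48.0%) in non-retaining cells. For 100 reads of Notch1 there were 43.8 reads of Notch2 in label-retaining cells and 98.7 in non-retaining cells. Per kilobase of exon, Notch1 was the highest receptor gene in label-retaining cells, at 653.8 normalised counts per kilobase against 378.2 for Notch2. In non-retaining cells Notch2 was the higher, at 1744 against 1338 for Notch1.

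The windows of 250 bases before the RefSeq start sites (GRCm38.p6) are shown for the 3 receptor genes with more than 100 reads in each library, which were all called lower, and for the outer of 2 start sites of the ligand gene Dll1, one of the genes farthest apart between the libraries. They lie at chr2:26503823-26504072 (minus strand) for Notch1, chr3:98013288-98013537 (plus strand) for Notch2, chr17:32166891-32167140 (minus strand) for Notch3 and chr17:15376933-15377182 (minus strand) for Dll1. Capitals mark matches to the GC box in the receptor windows. In the Dll1 window they mark TGATTCA, a match to TGANTCA, a loose AP-1 pattern in which N is any base.
Notch1: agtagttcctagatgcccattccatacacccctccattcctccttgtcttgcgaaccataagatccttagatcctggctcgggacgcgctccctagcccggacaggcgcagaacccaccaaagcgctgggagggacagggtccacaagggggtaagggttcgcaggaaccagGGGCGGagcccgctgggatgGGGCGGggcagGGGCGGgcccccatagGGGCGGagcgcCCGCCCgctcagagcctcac
Notch2: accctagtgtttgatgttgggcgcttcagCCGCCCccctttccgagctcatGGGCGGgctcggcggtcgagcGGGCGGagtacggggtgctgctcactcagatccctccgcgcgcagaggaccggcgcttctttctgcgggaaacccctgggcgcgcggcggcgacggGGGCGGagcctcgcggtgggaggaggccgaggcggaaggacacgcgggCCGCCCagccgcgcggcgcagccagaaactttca
Notch3: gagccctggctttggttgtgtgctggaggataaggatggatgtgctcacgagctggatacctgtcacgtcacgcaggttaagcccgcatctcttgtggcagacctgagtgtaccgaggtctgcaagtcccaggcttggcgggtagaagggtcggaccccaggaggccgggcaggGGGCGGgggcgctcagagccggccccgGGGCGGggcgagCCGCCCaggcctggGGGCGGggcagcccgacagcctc
Dll1: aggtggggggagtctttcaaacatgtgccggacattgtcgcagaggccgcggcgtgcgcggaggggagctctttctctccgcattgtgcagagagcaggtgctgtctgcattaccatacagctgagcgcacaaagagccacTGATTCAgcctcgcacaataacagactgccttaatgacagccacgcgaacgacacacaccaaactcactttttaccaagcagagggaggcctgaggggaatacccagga

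RefSeq windows were matched for 9 of the 10 genes, all but Hes1, with 10 windows in all. The GC box, GGGCGG on either strand, was found in 6 of the 10 windows and in 32.7% of all 32851 promoter windows of this length. The 10 windows were also richer in G and C, with a median of 64.8% against 52.4% for all windows, and in CpG, with a median of 16.5 against 6. Of 61 windows of the other Notch genes, 35 held the GC box. Each of the 3 receptor windows shown held at least 1 such match, as did the windows of Jag2, Dll3 and Dll4. Of these genes, Dll3 was called higher and Dll4 was not called. The windows of Jag1, Dll1 and Notch4, all called lower, held no GC box. The core letters bound by RBPJ, TGGGAA on either strand, were in 0 of the 10 windows and in 21.6% of all windows. Among the 61 windows of the other Notch genes, 16 held these letters. The loose AP-1 pattern TGANTCA, with N as any base, was in 1 of the 10, the outer window of Dll1, and in 6.75% of all. The other Dll1 window did not hold it, and neither did that of Jag2, which lay farther from equality than Dll1. The CACGTG box was in 0 of the 10 and in 6.02% of all, and the TATA letters TATAAA in 0 and in 12.4%. These matches describe the letters of short windows only.

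The ligand genes showed the widest differences. Jag2, which encodes a Jagged ligand, had 579.8 normalised counts in label-retaining and 13952 in non-retaining cells, a 24.1-fold difference (log2 ratio -4.59, interval -4.71 to -4.47). Of all measured genes, 1.44% had a ratio as low. Dll1, a Delta-like ligand gene, had 315.3 normalised counts in label-retaining and 3994 in non-retaining cells (-3.66, interval -3.83 to -3.50). Jag1, the other Jagged ligand gene, had 927.04 in label-retaining and 9380 in non-retaining cells (-3.34, interval -3.44 to -3.24). The 3 intervals did not overlap, which put Jag2 farthest from equality, Dll1 next and Jag1 nearest.

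The remaining ligand genes were near the limit of detection. Dll4, a ligand gene best known from endothelial tip cells, had 44 reads in label-retaining cells and 72 in non-retaining cells and was not called (-0.57, interval -1.15 to -0.02). Dll3, which encodes a divergent ligand that in mice acts mainly inside the cell against Notch signalling, had 16 reads in label-retaining and 5 in non-retaining cells (1.71, interval 0.30 to 3.61). It was the only one of the 10 genes called higher, and its mean of 10.3 normalised counts lay just above the minimum of 10. Without Dll3, the median of the other 9 was -2.07.

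Within the ligand family the leading gene changed between the libraries. Jag1 supplied 49.3% of ligand reads (interval 47.0% to 51.5%) in label-retaining and 34.2% (33.7% to 34.8%) in non-retaining cells. Jag2 supplied 30.8% (28.7% to 32.9%) in label-retaining and 50.9% (50.4% to 51.5%) in non-retaining cells. Per kilobase of exon the order was the same, with Jag1 at 47.6% and Jag2 at 24.9% in label-retaining cells, and Jag1 at 35.2% and Jag2 at 43.8% in non-retaining cells. The share of Dll1 was closer, at 16.8% (15.1% to 18.5%) in label-retaining and 14.6% (14.2% to 15.0%) in non-retaining cells. Ligand reads were also fewer relative to receptor reads, with 13.7 (13.0 to 14.3) per 100 receptor reads in label-retaining cells and 69.3 (68.3 to 70.3) in non-retaining cells.

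**Figure D2:**
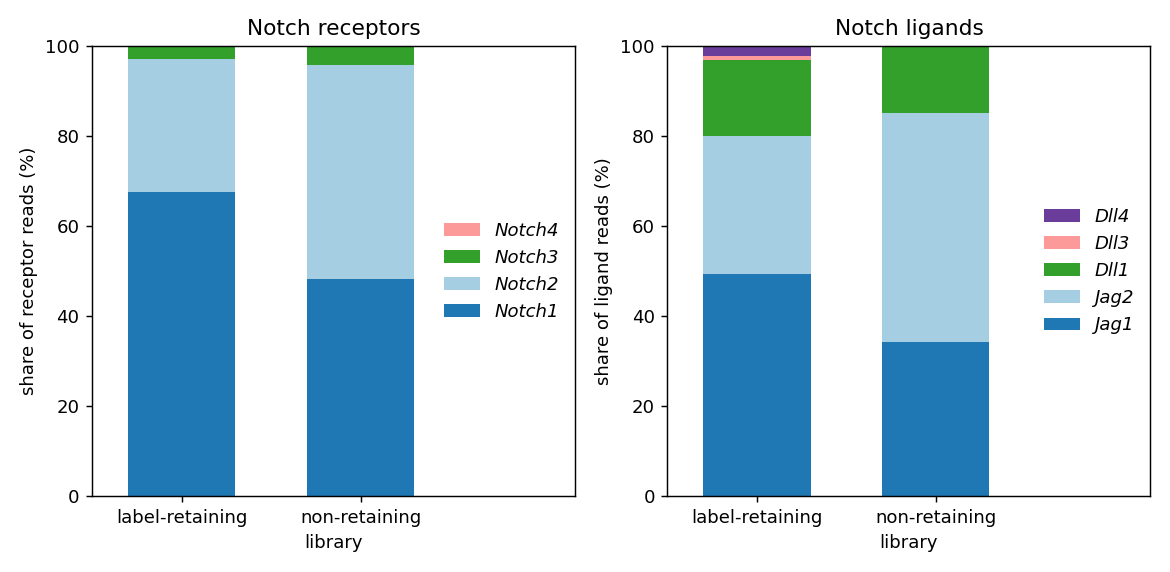
Share of Notch receptor reads (left panel) and Notch ligand reads (right panel) held by each gene in the label-retaining and the non-retaining library, in percent of the family's reads. Notch1 and Jag1 take the largest shares in the label-retaining library, at 67.5% and 49.3%, whereas Notch1 and Notch2 are nearly equal and Jag2 leads in the non-retaining library.

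Hes1, a transcriptional repressor that is a direct target of activated Notch and also answers to other signals, was not called. It had 7480 normalised counts in label-retaining and 12312 in non-retaining cells, a 1.65-fold difference (log2 ratio -0.72, interval -0.76 to -0.68). Of all measured genes, 25.4% had a ratio as low. Hes1 was therefore nearer to equality than any of the 4 receptor genes and than Jag1, Jag2 and Dll1. Relative to the receptors it was more abundant in label-retaining cells, with 54.3 reads (52.7 to 55.8) per 100 receptor reads, against 31.1 (30.5 to 31.7) in non-retaining cells. Relative to the luminal keratin gene Krt8 it was less abundant, with 5.06 reads (4.94 to 5.18) per 100 Krt8 reads in label-retaining and 15.2 (14.9 to 15.4) in non-retaining cells. When the libraries were scaled to Krt8 and Krt18, Hes1 was called lower at -1.48.

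Per kilobase of exon, the order of levels differed between the libraries below the first place. In label-retaining cells Hes1 (3672 normalised counts per kilobase) was followed by Notch1, Notch2, Jag1 (159.1), Jag2 (83.2), Dll1 (74.7), Notch3 (48.2), Dll4 (11.4), Dll3 (5.60) and Notch4 (1.73). The counting intervals of Jag2 and Dll1 overlapped there, as did those of Dll4 and Dll3. In non-retaining cells Hes1 (6044) was followed by Jag2 (2003), Notch2, Jag1 (1610), Notch1, Dll1 (946.7), Notch3 (202.5), Dll4 (17.0), Notch4 (6.55) and Dll3 (1.60), with no overlap between neighbours. Exon lengths were merged over all annotated transcripts, so that genes with long rare exons read low on this scale.

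The other genes of the pathway had a median nearer to equality than that of the receptors, ligands and Hes1. Of 57 listed, 52 were measured, of which 4 were called higher, 11 lower and 37 neither, with a median log2 ratio of -0.10. Below, the most counted gene of a list is the one with the highest mean of normalised counts over both libraries, without correction for length, and the order can differ within a library or per kilobase. The called share of the list was thus 11 of 52 lower and 4 of 52 higher, beside 19.4% and 14.5% of all measured genes, so that the share called lower was near the background. Hes2, Hes3, Hes5 and Dlk1 were not analysed here, and Rbpjl, an RBPJ-like factor gene known from pancreas, had 11 reads in label-retaining and 0 in non-retaining cells, below the minimum for calls.

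Among the target and feedback genes 1 of 6 was called. Nrarp, which encodes a Notch-induced inhibitor of the nuclear complex, had 150 reads in label-retaining cells and 763 in non-retaining cells (-2.21, interval -2.48 to -1.96). The other 5, Hes6, Hes7, Hey1, Hey2 and Heyl, had log2 ratios of -0.77 to 0.27. Hes1 (-0.72) lay within that range.

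Of the nuclear complex, 1 of 7 measured genes was called lower and 1 higher. The Mastermind-like co-activator gene Maml2 was at -2.65 (interval -2.89 to -2.42), with 176 reads in label-retaining and 1213 in non-retaining cells. The acetyltransferase gene Kat2b was at 1.49 (interval 1.42 to 1.57), and the acetyltransferase gene Ep300, the most counted over both libraries, was at -0.34, although Kat2b was ahead of it in label-retaining cells (5429 normalised counts against 3324). Of 7 co-repressor genes, Tle2, of the Groucho family, was called higher at 1.74 (interval 1.60 to 1.90), and the most counted, Ncor1, was at 0.27.

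Genes whose products glycosylate Notch receptors included 3 of 6 called lower. Lfng, the Lunatic Fringe enzyme that alters the preference of Notch for its ligands, had 105 reads in label-retaining and 1018 in non-retaining cells (-3.14, interval -3.45 to -2.85). Eogt, a glycosyltransferase of EGF repeats, was at -3.05 (interval -3.20 to -2.91), and Mfng, Manic Fringe, at -3.89 from 5 label-retaining and 89 non-retaining reads (interval -5.68 to -2.74). Of the 4 genes listed as ligand ubiquitin ligases, Neurl1a was called higher at 1.50 from 37 label-retaining and 14 non-retaining reads. Mib1, the most counted of them, was at -0.20.

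Of 10 receptor protease genes, 1 was called lower and 1 higher. Furin, which cleaves Notch during its maturation, had 7417 normalised counts in label-retaining and 17408 in non-retaining cells (-1.23, interval -1.27 to -1.19). Psen2, a presenilin of gamma-secretase, was called higher at 1.39 (interval 1.28 to 1.50). The reads of Aph1b and Aph1c, near-identical gamma-secretase genes, are uncertain because the handling of shared reads is not given.

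Genes of receptor turnover had 3 of 9 called lower. The Deltex genes Dtx4 and Dtx1 were at -2.33 (interval -2.45 to -2.22) and -3.12 (interval -3.80 to -2.54), and Numbl, a Numb-like inhibitor, at -1.14. Itch, a ubiquitin ligase and the most counted of them over both libraries, was at 0.38, although Dtx4 was slightly ahead of it in non-retaining cells (3664 normalised counts against 3606). Of 3 measured non-canonical ligands, Dlk2, which lacks the domain by which Delta and Jagged bind Notch, was called lower at -4.24 (interval -4.58 to -3.94), with 85 reads in label-retaining and 1777 in non-retaining cells. Dner was also called lower, at -1.90 (interval -2.58 to -1.30).

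**Figure D3:**
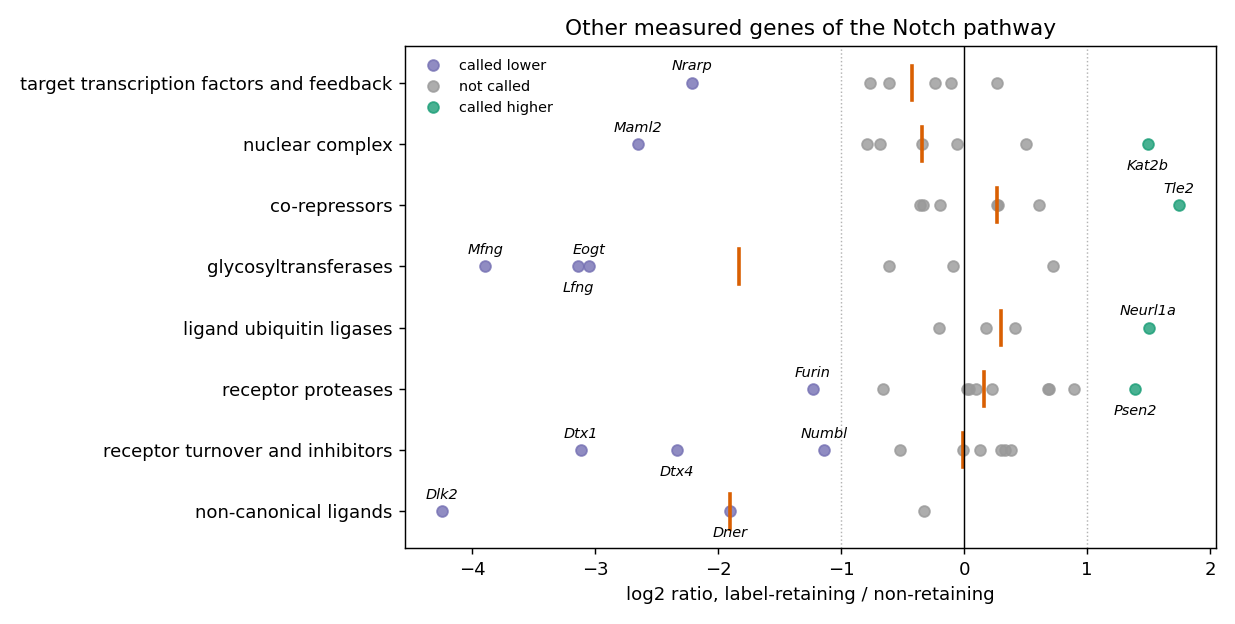
Log2 ratio (label-retaining over non-retaining) of the 52 measured other genes of the Notch pathway, by role; orange lines are medians, dotted lines mark 2-fold, and named points are those the naming rule selected. Of them 11 are called lower and 4 higher under the deposited scaling, beside 19.4% and 14.5% of all measured genes. Under the keratin scaling 22 other Notch genes are called lower and 0 higher. That scaling calls 6984 of all 17256 measured genes lower and 923 higher.

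Markers of other cell types also differed between the libraries, though not all in the same direction. All 12 basal markers were called lower, with a median log2 ratio of -4.39 and summed normalised counts of 54125 in label-retaining and 471333 in non-retaining cells. The basal keratin gene Krt5 was at -4.77. Among the most counted over both libraries, the basal keratin gene Krt17 was at -4.42 and the integrin gene Itga6 at -1.17. Of 12 smooth muscle and pericyte markers 10 were called lower (median -2.73), with sums of 5571 in label-retaining and 24065 in non-retaining cells, and over both libraries the most counted were Rgs5 (-4.09), Myh11 (-3.52) and Acta2. Mcam (0.72) and Cspg4 (0.35), the most counted of that list in label-retaining cells, went the other way and were not called. Of 12 endothelial markers 8 were called lower and 1 higher (median -1.37), with sums of 2291 in label-retaining and 2538 in non-retaining cells. Over both libraries the most counted were Eng (1.802), the 1 called higher, Pecam1 (-1.29) and Cdh5 (-1.20). Eng had 1460 normalised counts in label-retaining and 418.4 in non-retaining cells, a large part of the label-retaining sum. Leukocyte markers had 7 lower and 2 higher of 12 (median -3.82), with sums of 1388 in label-retaining and 15703 in non-retaining cells, and the median was the same with Gzma, at 0 reads in label-retaining cells, set to its bound. Over both libraries the most counted were Ptprc (-4.82), Gzmb (-8.54) and Gzma, whereas in label-retaining cells they were Cd68 (-0.35), Lyz2 (1.03) and Ptprc. Fibroblast markers had 4 lower and 3 higher of 10 (median 0.37), with sums of 17759 in label-retaining and 92546 in non-retaining cells, and over both libraries the most counted were Dcn (-4.09), Col3a1 (0.97) and Col1a2 (0.94). The median and the sums of the fibroblast list thus differed in direction. Luminal markers had 6 higher and 0 lower of 12 (median 1.17), with sums of 847422 in label-retaining and 340688 in non-retaining cells, and over both libraries the most counted were Pbsn (1.45), Krt8 (0.86) and Krt18 (0.66). In label-retaining cells Cd24a (2.12) and Krt19 (2.497) were ahead of Krt18. The part of these cells in the Notch values was not tested.

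**Figure D4:**
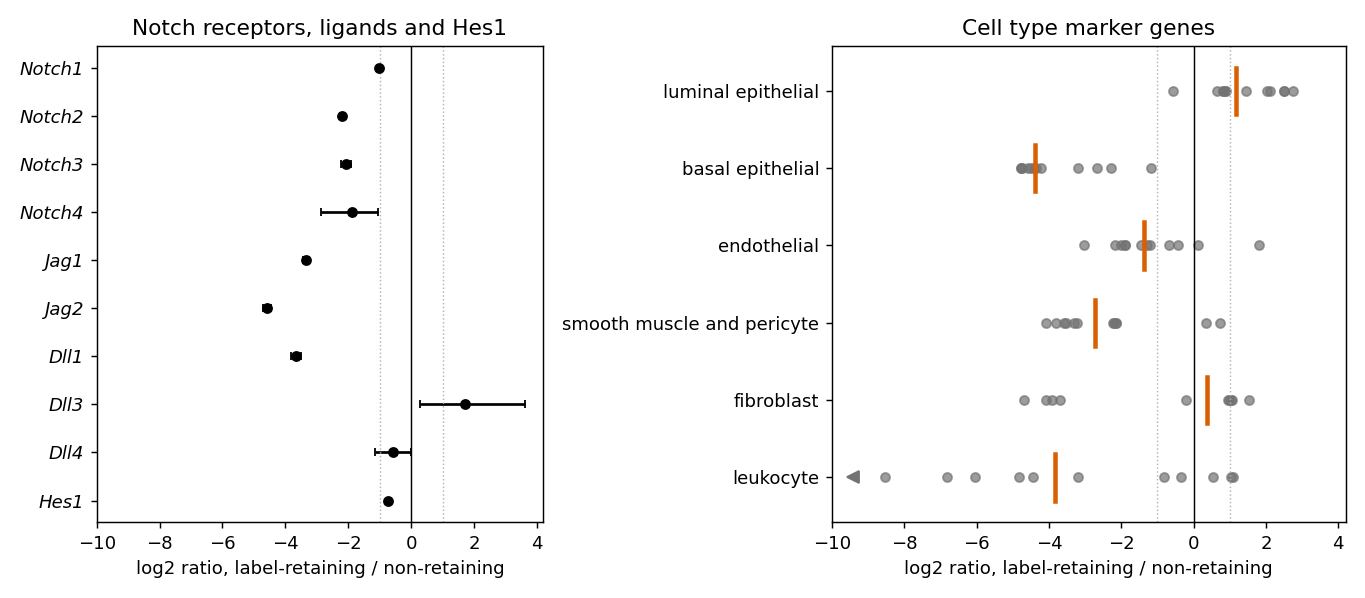
Log2 ratio (label-retaining over non-retaining) of the 10 genes with 95% counting intervals (left panel) and of cell type markers, 1 point per gene with the list median in orange (right panel). Dotted lines mark 2-fold, and the triangle is Gzma at its bound against 3 reads; Jag2 at -4.59 lies among the basal markers, whose median is -4.39, whereas Hes1 and Notch1 lie to the right of that median at -0.72 and -1.03.

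With 2 libraries, likeness of 2 genes is only the distance between their log2 ratios. By that measure the markers nearest to Jag2 were the basal keratin gene Krt14 (-4.58, distance 0.01) and the fibroblast gene Pdgfra (-4.68, distance 0.094), and those nearest to Jag1 were the smooth muscle genes Tagln (-3.31) and Acta2 (-3.23). Dll1 was nearest to the fibroblast gene Dpt (-3.70) and the smooth muscle gene Lmod1 (-3.58). Notch2 was nearest to the smooth muscle genes Actg2 (-2.20) and Mylk (-2.23), and Notch3 to the endothelial gene Kdr (-2.004) and the muscle gene Des (-2.15). Notch4 was nearest to the endothelial genes Flt1 (-1.89) and Tie1 (-1.90). Its interval (-2.87 to -1.06) also took in markers of other types, such as the basal gene Itgb4 (-2.29) and Des. Notch1 had Itga6 (-1.17) and the endothelial gene Cdh5 (-1.20) as its nearest. Hes1 was nearest to Cldn5 (-0.68) and Cd79a (-0.82), Dll4 also to Cldn5, and Dll3 to Eng (1.802) and Lum (1.53). The intervals of Dll4 (-1.15 to -0.02) and Dll3 (0.30 to 3.61) were wide as well, so their nearest markers are uncertain. Some of the named markers also rested on few reads. Actg2 had 19 label-retaining and 98 non-retaining reads (interval -3.03 to -1.51), and Dpt had 12 and 178 (-4.74 to -2.92). The interval of Actg2 took in Itgb4 and the endothelial gene Esam (-2.18). Nearness in ratio therefore does not assign a gene to a cell type.

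Set against Krt5 within each library, Jag2 and Notch1 differed. There were 60.4 reads of Jag2 (54.4 to 67.0) per 100 Krt5 reads in label-retaining and 53.4 (52.4 to 54.5) in non-retaining cells, with intervals that just overlapped. For Notch1 the same ratio was 969.2 (906.9 to 1037) in label-retaining and 72.9 (71.6 to 74.2) in non-retaining cells, and for Hes1 it was 779.2 (728.5 to 834.2) in label-retaining and 47.1 (46.2 to 48.1) in non-retaining cells. Set against Krt8, Notch1 had 6.29 reads (6.16 to 6.42) per 100 in label-retaining and 23.4 (23.1 to 23.8) in non-retaining cells.

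Genes that overlap others can hold misassigned reads, since the handling of strand in counting is not given. The largest such overlap concerned Dll1, with 20.5% of its exonic bases shared with A930024N18Rik on the opposite strand, which had 6 reads in label-retaining and 26 in non-retaining cells. Notch1, Notch2, Notch3 and Dll4 shared between 2.91% and 7.50% of their exonic bases with single other genes.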

How the data were processed

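Total RNA of sorted luminal prostate cells was made into Illumina TruSeq Stranded Total RNA libraries, per the labels' protocols. The deposited values were a normalised signal: read counts per gene, scaled by the authors with a single size factor for each library, as the values show. All values were whole multiples of 1 step per library within a tolerance of 0.001 (100% of values), and the steps, equal to size factors of 1.00 and 1.10, gave back whole reads. Per the submitters' processing notes the build was mm10, and the tools included DESeq 1.16.0, HTSeq 0.6.0, Bowtie2 2.1.0, TopHat2 2.0.10 and CASAVA 1.8.2, whose roles are not stated. Nothing is stated on annotation and strand handling.

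Symbols were matched for 18634 of 18724 identifiers. Positions and merged exon lengths came from GENCODE M21 (GRCm38, the same build), which may differ from the authors' annotation, and promoters from RefSeq (GRCm38.p6). The log2 ratio used a pseudocount of 0.5 normalised counts. Exact Clopper-Pearson 95% intervals were taken from the share of a gene's reads in the label-retaining library. Intervals of levels were exact Poisson ones. A call needed a mean of at least 10 normalised counts, a log2 ratio of at least 1 or at most -1, and an interval without 0. The rule was tested on simulated data. With 1 library per group no test between groups was run. Software was Python 3.11.15, scipy 1.17.1 and edgeR 4.0.16 (for TMM factors only).

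The members, pathway lists and marker lists were chosen with earlier results of these data known. Named were all 10 members, up to 3 called genes and the gene of highest mean count in each pathway list, the 2 markers nearest in ratio to each member, and the leading markers, some of which are not reported here. Hes6, Hes7, Hey1, Hey2, Heyl, Krt5, Aph1b, Aph1c, Mcam, Cspg4, Cd68, Lyz2, Cd24a, Krt19 and the unmeasured Rbpjl were named outside this rule, after their values were seen. The alternatives were 4 scalings, a pseudocount of 5, no minimum, a minimum of 50 and a 4-fold threshold.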

Additional observations from a re-analysis of the deposited data

How the results depend on the processing

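The 7 members called lower numbered 5 to 9 under the 8 alternatives, and each member kept its sign. Under TMM and median-of-ratios scaling, and with a pseudocount of 5, the counts of called members were the same as in the report. Scaling by library size moved the median of all measured genes to -0.21, that of the members to -2.27 and that of the other Notch genes to -0.29, and scaling to Krt8 and Krt18 moved them to -0.78, -2.83 and -0.84. The split of all calls was 2483 higher and 3330 lower as deposited, 1917 and 4001 by library size, and 923 and 6984 by keratins. Members called higher numbered 0 by library size, by keratins, at a minimum of 50 and at 4-fold, all from the loss of Dll3. Other Notch genes called numbered 22 lower and 0 higher by keratins, and 0 were higher at 4-fold. Under the keratin scaling Hes1 (-1.48) and Dll4 (-1.33) were called lower, and Dll3 stood at 0.99. Depth limits Notch4, Dll3 and Dll4, which had 5 to 72 reads. No paired analysis was possible because each group had 1 library.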
